A study of Mus musculus with 6 samples.

Results

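The mRNA levels of 9 genes of serine synthesis and of the ATF4 stress response were examined in 2 mouse podocyte lines. The 9 genes were taken by name, 9 of the 12803 genes in the deposited table: Phgdh, Psat1, Psph, Shmt1, Shmt2, Asns, Atf4, Ddit3 and Trib3. All 9 were found and all 9 passed the filter on low values. Podocytes are the epithelial cells that cover the capillaries of the kidney filter. The KO group was 3 RNA-seq libraries of a podocyte-derived line with the genotype Myosin 1e KO, and the WT group was 3 libraries of the murine podocyte line named Mundel with the genotype WT. No treatment or age is given for either group. Each genotype was 1 cell line, so genotype and any other difference between the lines cannot be told apart. The labels do not say how the replicates of a line were grown apart, and p-values here reflect only library-to-library spread, which may be technical. A heterozygous genotype that the design text names was not analysed here.

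Serine is made from a glycolytic intermediate in 3 enzymatic steps, catalysed in turn by the products of Phgdh, Psat1 and Psph. The hydroxymethyltransferases encoded by Shmt1 in the cytosol and Shmt2 in mitochondria then turn serine into glycine and load a carbon unit onto folate. The kidney is known as an organ that makes serine. ATF4 is a bZIP transcription factor of the integrated stress response, a pathway in which kinases that phosphorylate the initiation factor eIF2 slow general translation while Atf4 mRNA is translated more. ATF4 is known to switch on genes of amino acid synthesis and import, among them Asns and the serine synthesis genes, and the stress regulators Ddit3 and Trib3. Much of its control is at translation, which the level of Atf4 mRNA does not show.

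Depth ran from 35447096 to 42106461 reads in the listed genes, and the 9 genes held 407 to 14734 reads each per library. Levels are in CPM (reads scaled to a common library size), worked back from the deposited log2 values without the prior count, and ± is the SD of 3 libraries. Myo1e, the targeted gene, was at 17.3 ± 1.40 CPM in KO against 177 ± 8.41 CPM for WT, lower in all 3 KO libraries (limma log2 fold change -3.35, adjusted p = 2.1e-08; exact two-sided permutation p = 0.1, the smallest that 3 against 3 allows). Of 12 podocyte markers, 7 were in the table and summed to 622 to 831 CPM in KO and 970.0 to 1096 CPM in WT libraries, and the remaining 5 were not analysed here. Podxl (106 against 50.4 CPM) and Cd2ap (389.8 against 275 CPM) had the higher mean in KO, while Synpo (209 against 681 CPM), Wt1 (0.125 against 4.40 CPM), Foxc2 and Magi2 had the higher mean in WT. The lines also differed in markers of other cell types. The summed level of 8 parietal epithelial markers was 4779 to 5140 CPM in KO and 1021 to 1102 CPM in WT libraries, where Krt8, Krt18 and Krt19 were near 0 (0.405, 0.0509 and 0.0180 CPM). Cldn1 was also higher in KO, but the means of Pax2 (60.7 against 352 CPM), Ncam1 (17.4 against 164 CPM), Cd44 and Pax8 were lower in KO. The summed level of the 5 listed of 10 mesangial and fibroblast markers was 327 to 649.7 CPM in KO and 1409 to 1483 CPM in WT libraries. Most of it was Acta2 (499.6 against 1298 CPM). The means of Pdgfrb (0.192 against 114 CPM), Gata3 and Col1a1 were also lower in KO, and that of Dcn (1.40 against 0.947 CPM) was higher. The 5 listed of 10 tubular markers summed to 1720 to 1803 CPM in KO and 1559 to 2443 CPM in WT libraries, but these sums hold opposite differences. Epcam (386 against 0.0431 CPM) and Cldn4 (1271 against 0.0776 CPM) were near 0 in WT, while Lrp2 (14 against 331 CPM), Aqp1 (2.7 against 640.4 CPM) and Cdh16 (92.5 against 975 CPM) were higher in WT. The single listed markers of endothelium (Flt1) and leukocytes (Cd68) reached at most 14.7 and 3.44 CPM. The part of these markers in the results below was not tested. In these bulk samples, fewer cells that use a gene and less of its RNA per cell cannot be told apart.

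The 9 genes did not move as 1 block. Asns and Trib3 were higher in the KO line, Psat1, Phgdh and Shmt1 were lower, and Psph, Shmt2, Atf4 and Ddit3 did not pass the test. The threshold was an adjusted p (Benjamini-Hochberg) under 0.05 in limma, with all 12616 tested genes in the adjustment. The 5 of 9 that passed (55.6%) stand beside 68.1% of all tested genes. Of all tested genes 34.3% passed as higher and 33.8% as lower in the KO line, against 2 and 3 of the 9. Psat1, Asns and Trib3 also differed at least 2-fold, as did 27.9% of tested genes, 11.7% higher and 16.2% lower. The KO and WT values did not overlap in 3 of the 9, with all KO values higher in 2 and lower in 1. Among all tested genes 73.5% did not overlap, 37.2% with KO higher and 36.4% with KO lower.

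**Figure D1:**
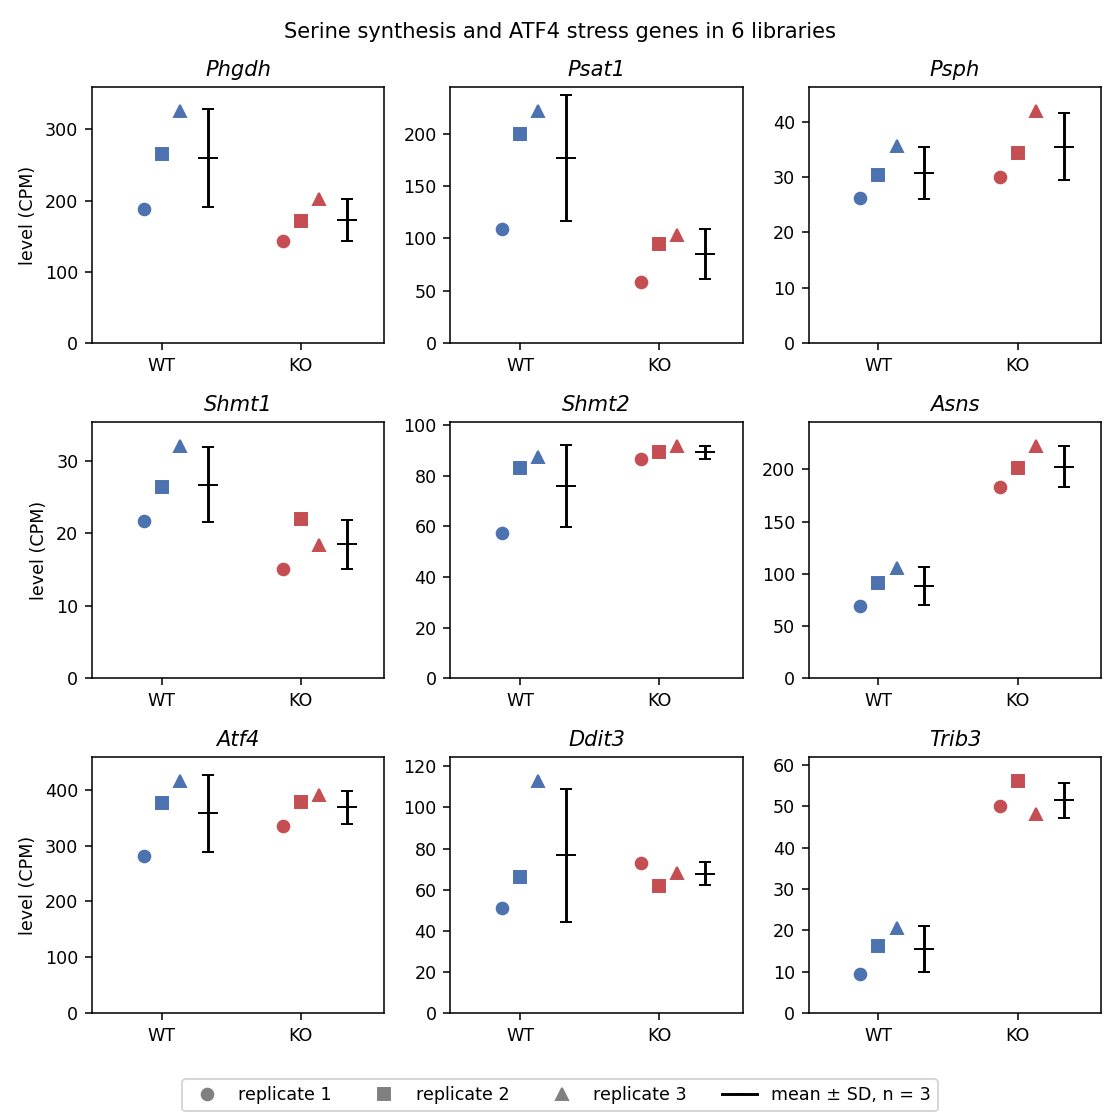
Level of each of the 9 genes in CPM (linear axis from 0) in the 3 WT libraries (blue) and the 3 KO libraries (red), with the replicate number as the marker shape and mean ± SD as black bars. The KO values of Asns and Trib3 lie above all WT values, those of Psat1 lie below all WT values, and the other genes overlap.

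WT replicate 1 stood apart for these genes. It had the lowest level of the 3 WT libraries in 9 of the 9 genes. Over all tested genes it was the lowest WT library in 38.2% and the highest in 41.7%.

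Phgdh (chr3:98313170-98339990, minus strand, in GRCm38 and GENCODE M21, as for the genes that follow) encodes the dehydrogenase that commits carbon to serine, and GENCODE also lists a pseudogene of it (Phgdh-ps1), so a share of its reads may be uncertain. In replicates 1 to 3, KO read 143, 171 and 203 CPM against 189, 266 and 327 CPM for WT. The groups met at 1 point, where KO replicate 3 lay above WT replicate 1. The mean fell from 260.3 ± 69.1 CPM in WT to 173 ± 29.7 CPM in KO, or 66.3% of the WT level (log2 fold change -0.57, SE 0.20, limma adjusted p = 0.032). This call was lost when KO replicate 1 (adjusted p = 0.117), KO replicate 2 (0.0724), WT replicate 2 (0.0806) or WT replicate 3 (0.093) was left out, and in a fit with no intensity trend (0.0616). Without WT replicate 1 the log2 fold change was -0.79 (adjusted p = 0.00272; 0.00272 to 0.117 over 12 alternatives).

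Psat1 (chr19:15904678-15947337, minus strand), the aminotransferase of the pathway, showed the largest fall among the 9 genes. KO read 58.1, 94.6 and 103 CPM against 109, 200.1 and 222 CPM for WT. The groups did not overlap, although the highest KO library and the lowest WT library lay close together. The mean fell from 177 ± 60.1 to 85.3 ± 24.0 CPM, which is 48.2% of the WT level (log2 fold change -1.03, SE 0.29, limma adjusted p = 0.0133). The gene passed in all 12 alternatives without a replicate block, with adjusted p from 0.00112 to 0.049, and its log2 fold change was -1.35 without WT replicate 1. Psat1 also had the widest spread among the KO libraries, with a highest value 1.78 times the lowest.

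Psph (chr5:129765558-129787449, minus strand), the phosphatase that releases serine, did not follow them. Its KO values were 30.1, 34.4 and 42.0 CPM and its WT values 26.3, 30.4 and 35.6 CPM. The groups overlapped and the mean was 35.5 ± 6.06 CPM in KO and 30.8 ± 4.68 CPM in WT (log2 fold change 0.20, 95% interval -0.15 to 0.55, limma adjusted p = 0.266). An interval from a slight decrease to an increase of under 0.6 on the log2 scale holds 0, so Psph was not shown to differ or to stay level. Single libraries moved the value, to 0.07 without KO replicate 3, 0.09 without WT replicate 1 and 0.31 without KO replicate 1 or WT replicate 3. GENCODE M21 puts 452 exon bases of Psph on the opposite strand of Cct6a exons. As the strand setting of the counting was not given in the sources used here, the assignment of those reads is uncertain. Cct6a, a chaperonin subunit, was at 344 against 353 CPM.

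The hydroxymethyltransferases differed in their calls. Shmt1 (chr11:60788104-60811718, minus strand), the cytosolic enzyme, read 15.1, 21.9 and 18.3 CPM in KO against 21.7, 26.4 and 32.1 CPM for WT. KO replicate 2 and WT replicate 1 overlapped by a small margin. The mean fell from 26.7 ± 5.22 to 18.4 ± 3.43 CPM (log2 fold change -0.53, SE 0.18, limma adjusted p = 0.0271), and the call was lost without KO replicate 1 (adjusted p = 0.101), KO replicate 3 (0.0672), WT replicate 2 (0.0637) or WT replicate 3 (0.0841; 0.0093 to 0.101 over 12 alternatives). Without WT replicate 1 it was at -0.67 on the log2 scale. Shmt1 shares 184 exon bases with Smcr8 on the opposite strand. Shmt2 (chr10:127517123-127522444, minus strand), the mitochondrial enzyme, was at 86.7, 89.3 and 92.0 CPM in KO and at 57.3, 83.2 and 87.5 CPM in WT. The KO values were tight, and the lower WT mean came with 1 low WT library. The means were 89.3 ± 2.61 and 76.0 ± 16.3 CPM, and the difference did not pass (log2 fold change 0.26, 95% interval -0.09 to 0.60, limma adjusted p = 0.159). Leaving out WT replicate 1 brought Shmt2 to 0.06 on the log2 scale. It was at 0.33 without WT replicate 2 and 0.37 without WT replicate 3 (limma adjusted p = 0.0588).

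Asns (chr6:7675169-7693254, minus strand), asparagine synthetase, moved the other way from Phgdh and Psat1. KO read 183, 202 and 223 CPM against 68.9, 91.0 and 106 CPM for WT. Every KO value lay well above every WT value. The mean rose from 88.5 ± 18.4 to 202 ± 19.8 CPM, a ratio of 2.29 (log2 fold change 1.21, SE 0.15, limma adjusted p = 0.00014). The gene passed in all 12 alternatives without a replicate block and had a log2 fold change of 1.04 without WT replicate 1. Of the tested genes, 2994 changed more than Asns in either direction.

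Atf4 itself (chr15:80255184-80257541, plus strand) did not pass. Its level was 336, 378 and 391 CPM in KO and 282, 376 and 416 CPM in WT. The WT values enclosed the KO values. The means were 368 ± 28.8 and 358 ± 68.9 CPM (log2 fold change 0.06, 95% interval -0.27 to 0.39, limma adjusted p = 0.742), and the sign turned without WT replicate 1 (-0.11). The interval leaves out a change of 2-fold either way in this mRNA.

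Ddit3 (chr10:127290774-127296288, plus strand), which encodes the stress factor CHOP, was at 73.1, 61.9 and 68.3 CPM in KO and at 51.1, 66.3 and 113 CPM in WT. WT replicate 3 was far above the rest, and the WT values enclosed the KO values. The means were 67.7 ± 5.62 and 76.8 ± 32.3 CPM (log2 fold change -0.10, 95% interval -0.67 to 0.47, limma adjusted p = 0.73). The log2 fold change was 0.22 without WT replicate 3 and -0.36 without WT replicate 1, so its direction rested on single libraries. GENCODE M21 lists 2 gene entries with the symbol Ddit3 that share 105 exon bases, and the deposited table has 1 row for the symbol. Ddit3 also shares 68 exon bases with Mars, the methionyl-tRNA synthetase gene, on the opposite strand, which was at 165 against 107 CPM (log2 fold change 0.62, limma adjusted p = 0.0035).

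Trib3 (chr2:152337422-152344032, minus strand), a pseudokinase that ATF4 and CHOP switch on and that restrains ATF4 in turn, showed the largest change of the 9. KO read 50.1, 56.2 and 48.2 CPM against 9.53, 16.2 and 20.7 CPM for WT. The lowest KO value lay far above the highest WT value. The mean rose from 15.5 ± 5.62 to 51.5 ± 4.19 CPM, a ratio of 3.33 (log2 fold change 1.80, SE 0.25, limma adjusted p = 0.00025). It passed in all 12 alternatives without a replicate block, and its log2 fold change ran from 1.49 without WT replicate 1 to 2.05 without WT replicate 3. Of the tested genes, 2120 changed more in either direction.

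**Figure D2:**
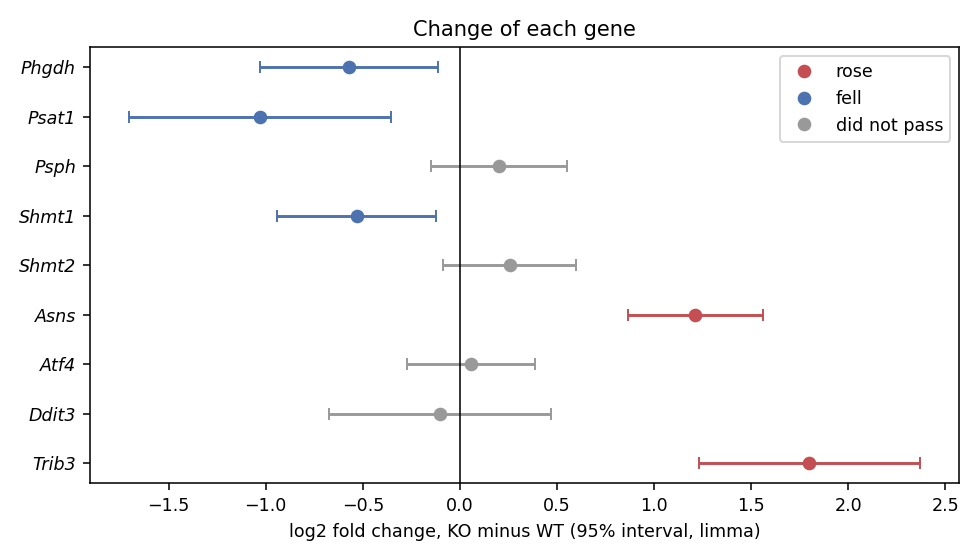
Log2 fold change of each gene, KO minus WT, with its 95% interval from limma. The intervals of Asns and Trib3 (red, rose) lie above 0, those of Phgdh, Psat1 and Shmt1 (blue, fell) lie below 0, and the other 4 (grey) cross 0.

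Promoter sequences are shown because Asns and Trib3 rose while Phgdh and Psat1 fell, all of them known ATF4 targets. All 9 genes matched the RefSeq promoter windows of GRCm38.p6, which span 300 bases around each start, 250 of them upstream, and Psat1 had 2 windows. TGATGNAA, the core of the C/EBP-ATF response element to which ATF4 binds with a C/EBP partner, was searched on both strands. It was found in the windows of 2 of the 9 genes, Asns and Trib3, and in 3.97% of 32851 windows of the genome (2.17% of 12878 windows of genes in the table). The CRE TGACGTCA was in none of the 9, nor was the ER stress element. They were found in 1.79% and 0.119% of all windows, and in 3.04% and 0.116% of windows of genes in the table. The Asns match starts 23 bases upstream of the RefSeq start, within the GENCODE first exon (chr6:7693214-7693243, minus strand), and the Trib3 match 15 bases downstream of the RefSeq start and outside GENCODE exons (chr2:152344028-152344057, minus strand). In these sites the capitals mark the match, which in Trib3 is on the other strand.
Asns: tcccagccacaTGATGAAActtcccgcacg
Trib3: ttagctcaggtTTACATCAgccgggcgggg

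The related form TGNTGCAAT was searched after the sequences were seen, on both strands. It was found in Trib3 and Psat1 and in 0.673% of all windows (0.497% of windows of genes in the table). It begins 33 bases upstream of the start in Trib3 and 136 bases upstream in the Psat1 window that holds it. These upstream stretches of Trib3 (chr2:152344061-152344310, minus strand) and Psat1 (chr19:15925060-15925309, minus strand) run from 250 bases upstream to the start, with the match in capitals. The stretch of Phgdh (chr3:98339991-98340219, minus strand), which ends at the first GENCODE exon, held no match to the motifs searched.
Trib3: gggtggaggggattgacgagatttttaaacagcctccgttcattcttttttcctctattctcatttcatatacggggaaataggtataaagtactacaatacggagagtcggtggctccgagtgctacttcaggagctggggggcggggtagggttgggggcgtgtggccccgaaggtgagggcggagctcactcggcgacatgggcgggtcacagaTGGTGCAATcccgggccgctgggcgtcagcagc
Psat1: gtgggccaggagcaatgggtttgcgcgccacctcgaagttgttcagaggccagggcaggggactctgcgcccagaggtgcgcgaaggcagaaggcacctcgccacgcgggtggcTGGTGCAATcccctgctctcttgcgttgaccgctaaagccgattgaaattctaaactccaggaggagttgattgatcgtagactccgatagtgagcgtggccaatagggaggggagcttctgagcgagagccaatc
Phgdh: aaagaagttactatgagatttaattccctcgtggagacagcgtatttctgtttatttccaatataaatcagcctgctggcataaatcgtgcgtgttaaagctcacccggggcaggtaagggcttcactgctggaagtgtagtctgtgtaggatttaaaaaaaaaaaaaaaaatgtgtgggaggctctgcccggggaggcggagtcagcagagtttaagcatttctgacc

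The nonamer tggtgcaat thus occurs in a gene that rose and in a gene that fell. A match is a description of these letters and no evidence of binding, and the data hold no measure of binding.

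Read per kilobase of GENCODE exon, Atf4 had the highest level of the 9 genes in both lines, at 156 ± 12.2 CPM per kilobase in KO and 152 ± 29.2 in WT. In the KO line Asns (74.0 ± 7.25 CPM per kilobase) and Phgdh (69.4 ± 11.9) came next, and their library values overlapped. Below them stood Ddit3 (39.5), Shmt2 (28.7), Trib3 (24.2), Psat1 (20.1), Psph (8.20) and Shmt1 (4.75 CPM per kilobase), with an overlap only between Trib3 and Psat1. In the WT line the values of Atf4 and Phgdh (105 ± 27.8 CPM per kilobase) overlapped. Ddit3 (44.8), Psat1 (41.6), Asns (32.4) and Shmt2 (24.5 CPM per kilobase) followed, each overlapping its neighbour in this order. Trib3 (7.28), Psph (7.11) and Shmt1 (6.88 CPM per kilobase) closed the order in WT and also overlapped. These levels count every annotated exon of a gene, used or not, and for Ddit3 only those of its longer GENCODE entry.

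Within the WT line the 9 genes went up and down together from library to library, and in the KO line they did so less uniformly. WT replicate 1 was the lowest and WT replicate 3 the highest WT library for 9 of 9 genes. KO replicate 1 was the lowest KO library for 7 of 9 genes and KO replicate 3 the highest for 6 of 9. The median deviation from the group mean was -0.38 log2 CPM in WT replicate 1 and 0.28 in WT replicate 3, but -0.14 in KO replicate 1 and 0.09 in KO replicate 3. Across the 6 deviations, all 36 pairs of the genes had a positive correlation, from 0.55 (Psat1 with Ddit3) to 0.99 (Phgdh with Asns), with a median of 0.85. Over all 79575420 pairs of tested genes the median was 0.0006 and 50.0% of pairs were positive. All pairs share the same 6 libraries, from which 2 group means were taken, so these values are a description. Genes that changed in opposite directions between the lines, such as Phgdh and Asns, thus moved alike within them. Library 1 of each line was also the deepest of its group, with 41360689 reads in KO and 42106461 in WT, and the part of depth in this was not tested.

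**Figure D3:**
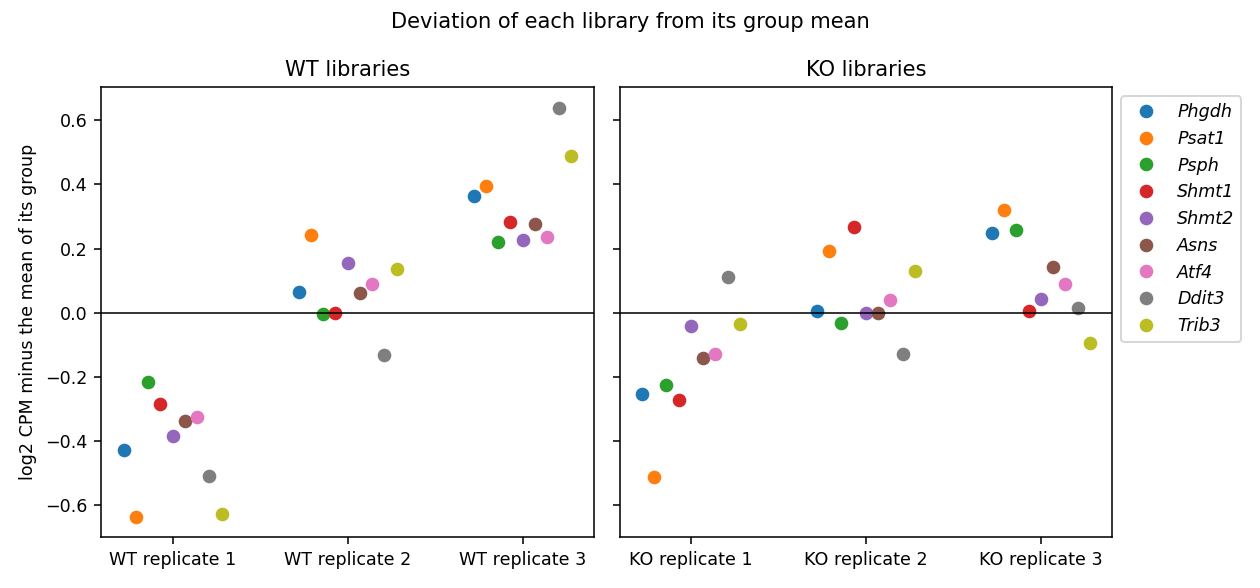
Deviation of each library from its group mean in log2 CPM for the 9 genes, WT libraries at the left and KO libraries at the right. All 9 genes lie below 0 in WT replicate 1 and above 0 in WT replicate 3, while each KO library has genes on both sides of 0.

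Lists of neighbouring genes differed in this library pattern. WT replicate 1 was the lowest WT library in 40 of 46 tested ATF4 target genes, 7 of the 9 genes included, and in 19 of 20 cytosolic aminoacyl-tRNA synthetase genes, which load amino acids onto tRNA. Its median deviation was -0.28 log2 CPM in the targets and -0.21 in the synthetases. Nars, Aars, Sars, Gars and Wars belong to both lists. WT replicate 1 was also the lowest in 11 of 14 related bZIP factors, 14 of 20 folate enzymes and 10 of 16 serine and glycine genes. These counts include members of the 9 genes, in all of which WT replicate 1 was the lowest. Outside the 9, these 3 lists held 12, 18 and 11 tested genes. The share over all tested genes was 38.2%. In the list of eIF2, its kinases and related genes WT replicate 1 was the lowest in 10 of 21. Among ER chaperones and genes of the ATF6 and XBP1 arms of the unfolded protein response, it was the lowest in 7 of 23. Its median deviation there was 0.00. In the methionine cycle and transsulfuration list it was the lowest in 3 and the highest in 8 of 15 genes, and among other amino acid synthesis enzymes the lowest in 7 and the highest in 11 of 20. The ATF4 targets outside the 9 genes had a median pair correlation of 0.54 over 741 pairs, the synthetases 0.79 over 190 pairs and the ER list 0.18 over 253 pairs. Also outside the 9, the median was 0.115 over 55 pairs of serine and glycine genes. It was 0.13 over 153 pairs of folate enzymes and 0.035 over 66 pairs of bZIP factors.

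**Figure D4:**
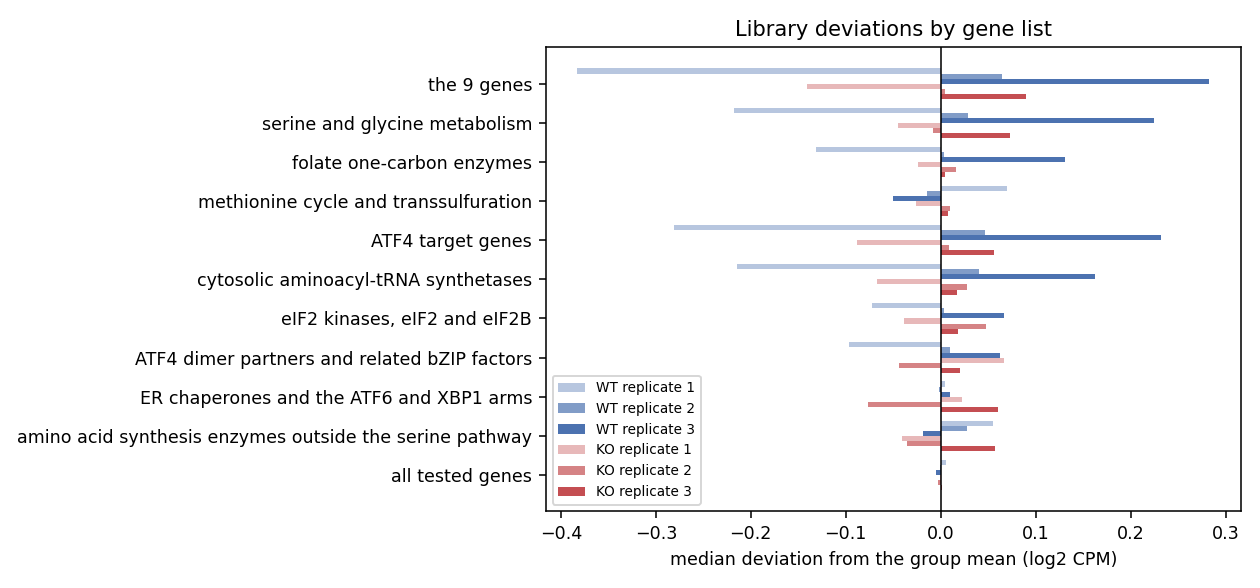
Median deviation of each library from its group mean (log2 CPM, linear axis) for the 9 genes, the lists of neighbouring genes and all tested genes. WT replicate 1 (palest blue) reaches -0.38 for the 9 genes and -0.28 for the ATF4 targets, and the bars of all tested genes are close to 0.

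ATF4 target genes rose more often than they fell in the KO line. Of 46 tested, 22 rose and 11 fell. The share that passed, 71.7%, was near the 68.1% of all tested genes, of which 34.3% passed as higher and 33.8% as lower. Their median log2 fold change was 0.32 beside 0.01 over all tested genes, and without the 9 genes 20 rose and 9 fell of 39. Without WT replicate 1 the count was 17 and 12 and the median 0.16. Over all single left-out libraries, the number that rose ran from 15 (KO replicate 2) to 25 (WT replicate 3). The number that fell ran from 10 to 12. Those that rose most were Chac1, a glutathione-degrading enzyme, at 76.1 ± 6.94 against 21.4 ± 7.67 CPM (log2 fold change 1.89), the stress-induced Nupr1 at 267 ± 28.4 against 75 ± 20.3 CPM (1.86) and Pycr1, a proline synthesis enzyme, at 24.3 ± 0.681 against 7.10 ± 1.80 CPM (1.81). Sesn2, a restraint on mTORC1, rose to 144 ± 12.4 from 97.2 ± 2.54 CPM. Others fell far. The secreted glycoprotein Stc2 fell from 364 ± 73.2 to 5.82 ± 2.77 CPM (log2 fold change -6.09), Cbs, which uses serine to make cystathionine, from 25.6 ± 10.3 to 1.41 ± 0.594 CPM (-4.16), and the lipoprotein receptor Vldlr from 377 ± 78.1 to 86.9 ± 8.34 CPM (-2.10). Among the carriers, the heavy chain Slc3a2 fell from 422 ± 41.9 to 236 ± 22.6 CPM and its light-chain partner Slc7a5 from 205 ± 59.4 to 98.5 ± 22.0 CPM. The cystine carrier Slc7a11 was at 10.6 ± 2.41 against 6.41 ± 2.78 CPM and passed narrowly with overlapping groups (limma adjusted p = 0.0461). That call was lost without any 1 of the 6 libraries except WT replicate 3, and without the intensity trend (adjusted p 0.00443 to 0.151 over 12 alternatives).

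Serine and glycine genes fell more often than they rose. Of 16 tested, 2 rose and 9 fell. The 68.8% that passed were near the 68.1% of all tested genes, of which 34.3% were higher and 33.8% lower. Without the members of the 9 the count was 2 and 6 of 11, with a median log2 fold change of -0.56. Sfxn1, the mitochondrial serine carrier, fell from 143 ± 4.12 to 63.9 ± 1.69 CPM (log2 fold change -1.16, limma adjusted p = 1.4e-06). The dehydratase-like Sdsl fell from 16.8 ± 2.49 to 5.93 ± 0.203 CPM and Gcat, which makes glycine from a threonine product, from 3.22 ± 0.513 to 1.43 ± 0.475 CPM. Slc1a4, a plasma membrane carrier of serine and other neutral amino acids, rose to 85.3 ± 3.39 from 28.8 ± 6.19 CPM (log2 fold change 1.59). Dld, a subunit of the glycine cleavage system, rose to 111 ± 6.45 from 94.4 ± 3.49 CPM, a call lost without WT replicate 2 (adjusted p = 0.0933; 0.0138 to 0.0933 over 12 alternatives).

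Downstream of serine, folate enzymes went both ways. Of 20 tested, 4 rose and 6 fell, or 50.0% against 68.1% of all tested genes. Their median change was 0.01 on the log2 scale, and its sign rested on single libraries, with -0.09 without WT replicate 1 and -0.01 without KO replicate 3. Mthfd2, the mitochondrial dehydrogenase that follows Shmt2, rose to 116 ± 7.49 from 58.5 ± 11.4 CPM (log2 fold change 1.00). The purine synthesis enzyme Atic rose to 135 ± 6.14 from 81.6 ± 8.29 CPM and Fpgs, which retains folate in cells, to 30.4 ± 1.64 from 18.2 ± 0.183 CPM. Tyms, the thymidylate synthase, fell from 45.5 ± 6.47 to 14.4 ± 0.156 CPM and the folate receptor Folr1 from 13.5 ± 0.698 to 2.00 ± 0.555 CPM. Mthfd1l was at 20.9 ± 0.962 against 19.7 ± 3.44 CPM and Aldh1l2 at 8.16 ± 2.63 against 10.3 ± 2.55 CPM, and neither passed. Of 15 tested genes of the methionine cycle and of transsulfuration, which takes serine into cysteine, 4 rose and 8 fell, and 2 rose without WT replicate 1. Gclc, of glutathione synthesis, fell from 303 ± 40.3 to 54.9 ± 7.10 CPM and the sulfurtransferase Tst from 15.3 ± 2.76 to 2.5 ± 0.316 CPM. Mat2b, a regulatory subunit of methionine adenosyltransferase, rose to 113 ± 1.1 from 76.1 ± 3.39 CPM and the glutathione synthetase Gss to 52.5 ± 5.53 from 40.0 ± 2.77 CPM. Ahcy, a hydrolase of that cycle, was at 12.8 ± 0.959 against 9.93 ± 0.608 CPM and passed (limma adjusted p = 0.0237), a call lost when KO replicate 1 (0.0907) or WT replicate 1 (0.0576) was left out (0.0141 to 0.0907 over 12 alternatives).

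Cytosolic aminoacyl-tRNA synthetases rose or did not pass, and Nars, Aars, Sars, Gars and Wars are also in the list of ATF4 targets. Of 20 tested, 11 rose and 0 fell in limma. These 55.0% stand beside 68.1% of all tested genes, 34.3% higher and 33.8% lower. Their median change was 0.34 on the log2 scale. At an unadjusted p under 0.05 the counts were 12 and 1, and voom gave 11 and 0. Without WT replicate 1, 11 rose and 2 fell, Kars (log2 fold change -0.20) and Yars (-0.32), named after their values were seen. Vars rose to 249 ± 24.4 from 115 ± 21.0 CPM, Rars to 238 ± 12.9 from 140.1 ± 13.6 CPM and Iars to 234 ± 17.5 from 150.0 ± 32.8 CPM. Of 20 tested genes of other amino acid synthesis, Asns among them, 8 rose and 8 fell. Bcat2, the mitochondrial branched-chain aminotransferase, rose to 42.3 ± 5.30 from 17.8 ± 0.666 CPM. Its cytosolic counterpart Bcat1 fell from 56.6 ± 12.4 to 4.88 ± 2.64 CPM, the ornithine aminotransferase Oat from 353 ± 41.8 to 81.8 ± 6.80 CPM and the glutamine synthetase Glul from 102 ± 34.4 to 32.2 ± 1.52 CPM.

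Upstream of ATF4, the eIF2 kinases differed in direction. Eif2ak3, the ER-stress kinase PERK, rose to 254 ± 25.8 from 85.2 ± 9.83 CPM (log2 fold change 1.58, limma adjusted p = 3.8e-06). Eif2ak2, the kinase PKR that senses double-stranded RNA, fell from 174 ± 33.4 to 76.4 ± 3.82 CPM (log2 fold change -1.17). Eif2ak4, the amino acid sensor GCN2, was at 35.3 ± 1.61 against 29.0 ± 2.27 CPM (adjusted p = 0.0235), and Eif2ak1, the heme-regulated kinase HRI, at 63.3 ± 2.57 against 71.9 ± 0.980 CPM (adjusted p = 0.0428). The last 2 were called in 8 and 5 of 12 alternatives, with adjusted p from 0.017 to 0.0747 and from 0.043 to 0.14. The call of Eif2ak4 was lost without KO replicate 2 (0.0747), KO replicate 3 (0.0519), WT replicate 1 (0.0636) or WT replicate 2 (0.069), and that of Eif2ak1 without any 1 library except KO replicate 2, without the intensity trend and with median centring. A list of 21 tested genes held the kinases, eIF2, its exchange factor eIF2B and related genes such as Impact and Dele1. Of this list 10 rose and 4 fell, or 66.7% against 68.1% of all tested genes. The number that rose was 6 without KO replicate 3 or without WT replicate 2 and 7 without WT replicate 1. The eIF2B subunit Eif2b3 rose to 29.5 ± 2.7 from 17.9 ± 0.937 CPM and the adaptor Nck2 to 43.1 ± 2.00 from 25.3 ± 3.40 CPM. Impact, an inhibitor of GCN2, fell from 85.6 ± 16.4 to 44.4 ± 2.69 CPM and Dele1, which relays mitochondrial stress to HRI, from 64.0 ± 2.7 to 50.2 ± 3.00 CPM.

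The bZIP factors related to ATF4 fell more often than they rose, with 7 against 3 of 14 tested. The 71.4% that passed were near the 68.1% of all tested genes, of which 34.3% were higher and 33.8% lower. Those that fell most were of the C/EBP family, whose members can pair with ATF4. Cebpa fell from 29.0 ± 9.0 to 1.02 ± 0.243 CPM, Cebpd from 35.4 ± 1.1 to 5.0 ± 1.32 CPM and Cebpb from 27.8 ± 3.14 to 10.4 ± 0.542 CPM, while Cebpg was at 77.0 ± 6.71 against 75.2 ± 5.48 CPM and did not pass. Nfe2l1, a regulator of proteasome genes, rose to 945 ± 51.1 from 476 ± 38.9 CPM, the stress-induced Atf3 to 56.5 ± 6.20 from 33.4 ± 7.24 CPM and Atf2, which binds CRE sites, to 87.1 ± 3.89 from 72.7 ± 3.22 CPM. Atf5, a relative that is also an ATF4 target, was at 211 ± 21.6 against 245 ± 62.1 CPM and did not pass, but did so as lower without WT replicate 1 (adjusted p = 0.0155; 0.0155 to 0.92 over 12 alternatives).

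Genes of the other arms of the unfolded protein response rose in 11 and fell in 4 of 23 tested. Without WT replicate 1, 9 rose and 3 fell. The 65.2% that passed stand beside 68.1% of all tested genes, and the median was 0.18 on the log2 scale. The sensor Ern1 (IRE1) rose to 60.7 ± 7.37 from 29.3 ± 2.35 CPM, its substrate Xbp1 to 119 ± 9.05 from 68.1 ± 7.57 CPM and Sec61b, of the ER translocon, to 38.1 ± 5.49 from 26.9 ± 1.39 CPM. The ER chaperone Hspa5 was at 1256 ± 101 against 962 ± 89.4 CPM and passed (limma adjusted p = 0.0166), a call lost when WT replicate 1 was left out (0.057; 0.00981 to 0.057 over 12 alternatives). Creld2, an ER stress-induced protein, fell from 63.4 ± 1.22 to 39.4 ± 5.02 CPM, the chaperone Hspa13 from 101 ± 3.52 to 78.9 ± 4.69 CPM and the co-chaperone Dnajb11 from 168 ± 6.79 to 139 ± 7.98 CPM.

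**Figure D5:**
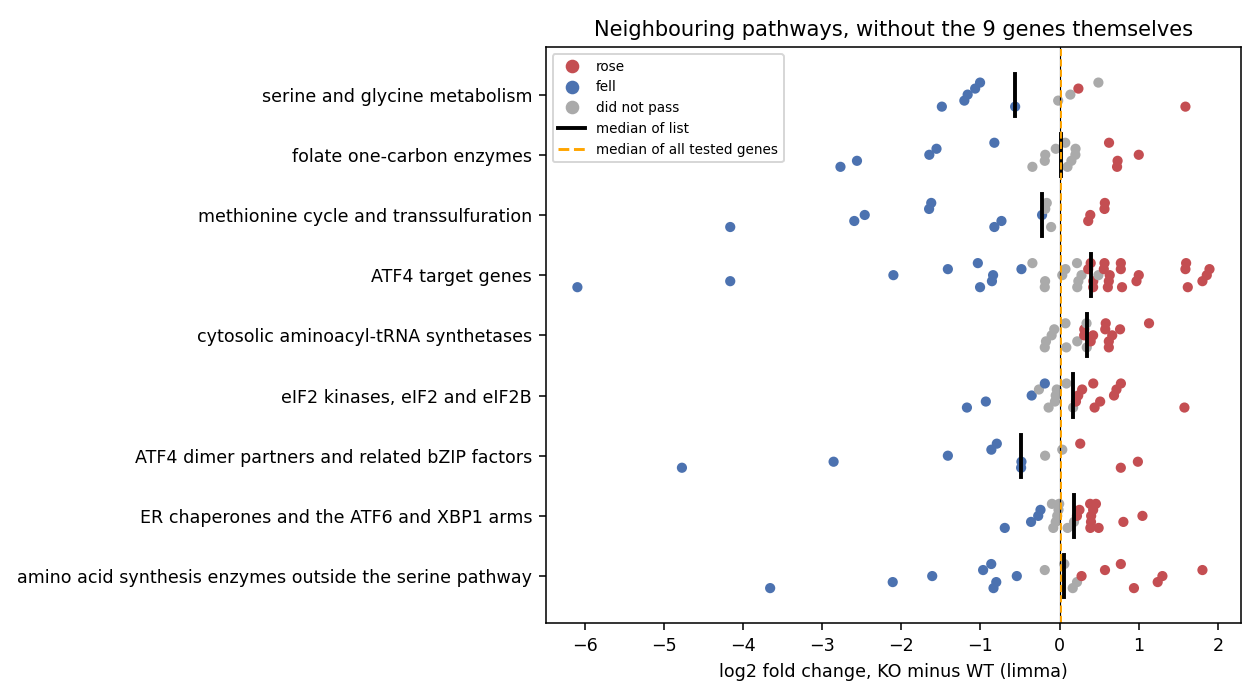
Log2 fold change, KO minus WT, of each tested gene of the 9 lists without the 9 genes themselves (red rose, blue fell, grey did not pass), with the list median as a black bar and the median of all tested genes (0.01) as a dashed line. The medians of the ATF4 targets (0.39) and of the synthetases (0.34) lie furthest to the right. Those of serine and glycine genes (-0.56), bZIP factors (-0.48) and methionine cycle and transsulfuration genes (-0.22) lie to the left.

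By the root mean square distance between 6 log2 CPM values, each gene centred on its own mean, the tested genes most like Asns were Snhg6 (0.08), Nhp2 (0.09) and Shq1 (0.10). Those most like Phgdh were Mnd1 (0.10), Pdss1 (0.10) and 5530601H04Rik (0.12), and those most like Atf4 were Srsf2 (0.04), Rbm3 (0.05) and Mthfd1l (0.05). Within a distance of 0.2 there were 126 genes of Asns, 101 of Phgdh and 1592 of Atf4, so the nearest names were some among many.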

How the data were processed

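Messenger RNA libraries of 3 KO and 3 WT samples were analysed, grouped by the sample titles. The authors deposited 1 table of log2 CPM. The submitters' processing notes name edgeR, Subread 1.6.4, featureCounts, STAR 2.7.3a, Trimmomatic 0.39 and the build GRCm38. Gene annotation, strand setting, filter and prior: not given in the sources used here. Removing the floor value that all columns share left every value (100%) a whole multiple of its column's smallest step (tolerance 0.001), which gave reads, library sizes and CPM.

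The main test was limma 3.58.1 in R 4.3.3 on the deposited log2 values, KO minus WT, with an intensity trend and no replicate block. It covered the 12616 genes above 0 log2 CPM in at least 3 libraries, with Benjamini-Hochberg adjustment over all of them, and 187 genes were not tested. The procedure was run on simulated independent reads (dispersion 0.01) with few genes changed. Those data hold no library shifts such as that of WT replicate 1, so the run does not test their effect. Exon lengths and positions came from GENCODE M21 and promoter windows from RefSeq (GRCm38.p6).

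The members and lists were chosen with earlier results of these data known. The genes named are the 9, Myo1e, a set of stress response genes, the nearest 3 in pattern to Phgdh, Asns and Atf4 and, from each list, up to 3 risen and 3 fallen genes of largest change among those that passed, did not overlap and reached 1 log2 CPM on average in the line where they were higher. Some genes that this rule names are not reported here. Alternatives were limma without a trend, voom on the recovered reads, no filter, a filter at 2 log2 CPM, log2(CPM + 1), median centring, a replicate block and leaving out each library.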

Additional observations from a re-analysis of the deposited data

How the results depend on the processing

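Of the 9 genes, Asns and Trib3 rose and Psat1 fell in all 13 alternatives. The number that fell, 3, ran from 1 to 3 when single libraries were left out and was 2 without the intensity trend, where Phgdh had an adjusted p of 0.0616. The number that rose was 2 throughout. Left-out libraries moved the count of risen serine and glycine genes from 2 to between 1 and 3. Risen methionine cycle and transsulfuration genes went from 4 to between 2 and 4. Fallen synthetases went from 0 to between 0 and 2, and risen genes of the eIF2 list from 10 to between 6 and 9. The sign turned, with no call on either side, when single libraries were left out for Atf4 (-0.11 to 0.18), Ddit3 (-0.36 to 0.22), Cebpg (-0.022 to 0.11) and Mthfd1l (-0.041 to 0.21), by leaving out WT replicate 3 for Ddit3, WT replicate 1 for Atf4 and Mthfd1l, and KO replicate 1 (-0.01) or WT replicate 1 for Cebpg. The causes were not tested.

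The replicate block gave 4218 higher and 4177 lower genes, against 4329 and 4261 without it, and 2 risen and 3 fallen of the 9, with adjusted p of 0.0016 for Phgdh, 7.2e-05 for Psat1 and 0.0115 for Shmt1. Same-numbered libraries had correlations of deviations of 0.10, 0.08 and -0.10 for numbers 1 to 3 over 12616 genes. Only KO replicate 1 and WT replicate 2 correlated best with their own number. The highest values were between different numbers, at 0.177 for KO replicate 2 with WT replicate 3 and 0.105 for KO replicate 3 with WT replicate 1. Of the 9 genes, replicate 1 was the lowest library for 9 in WT and 7 in KO, and replicate 3 the highest for 9 and 6. Whether same-numbered libraries share a batch was not tested. With the block, the calls of Eif2ak1 (adjusted p = 0.0651) and Ahcy (0.0519) were lost. The planned edgeR and DESeq2 fits on recovered reads were not run, as the table holds log2 values. With 3 libraries a group, precision was low for genes such as Ddit3, whose WT values differed 2.21 times and whose 95% interval ran from -0.67 to 0.47.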
